A study of Oryza sativa with 12 samples.

Results

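The response of rice shoot apices to induction of *OsWOX4* silencing was compared between 12 h and 3 h of dexamethasone (DEX), gene by gene, as the DEX effect at 12 h minus the DEX effect at 3 h. A DEX effect is the mean log2 signal of DEX arrays minus that of mock arrays of the same time, and the difference between both effects is called the change below. The rows of the array table that the annotation pairs with a single gene, 15829 of 54922 rows, were sorted by the calls for both effects and for the change. A row called at both times in the same direction was growing when the change was called in that direction, waning when it was called in the other and sustained when it was not called. A row called at both times in opposite directions was reversed, a row called at 3 h alone was transient, and a row called at 12 h alone was late only where the change was called too. Every call is an adjusted p under 0.05 in limma, where p-values were corrected across the 54922 rows by the method of Benjamini and Hochberg.

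All plants carried *pACT1-GVG>OsWOX4:RNAi*, in which the *ACT1* promoter drives GVG, a chimeric transcription factor that enters the nucleus on binding DEX and then switches on the RNAi transgene. The 4 groups were DEX for 12 h, mock for 12 h, DEX for 3 h and mock for 3 h, with DEX at 10 μM and 3 arrays of biological replicates in each. Seedlings were 5 days old, and the harvested apex held the SAM (shoot apical meristem) and the young leaf primordia, so each array averages many cell types. No array of DEX-treated plants without the transgene was analysed here, so effects of DEX, of GVG and of *OsWOX4* silencing cannot be told apart. In such bulk samples, fewer cells of a type and less RNA per cell cannot be told apart either.

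*OsWOX4* encodes a homeodomain protein of the WOX family, whose members act in stem cell maintenance and in organ growth. With an inducible transgene, genes that respond within a few hours can lie close to the inducing event, while genes that respond later also include those that answer to the earlier changes. For this reason early and late effects of the same transgene are often set side by side, although a time course by itself does not separate direct from indirect targets.

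Between mock arrays of 12 h and of 3 h no row was called in limma. The lowest adjusted p was 0.145, and 5614 of the 54922 rows had an unadjusted p under 0.05. The change contains this mock difference, which is given beside a gene described with its signals where it was above 0.5 on the log2 scale. Arrays have no read depth, and their number limits the precision. The median log2 signal was 5.64 to 5.66 in the DEX arrays of 12 h and 5.72 to 5.76 in the other 9 arrays, and replicate arrays correlated with r of 0.982 to 0.990.

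The markers of leaf primordia and meristem were present. The summed signal of 6 leaf primordium markers, *DL* and the *YABBY* genes, was 2946 to 3208 in DEX arrays and 1834 to 1979 in mock arrays of 12 h, and 2255 to 2372 in DEX arrays and 1863 to 1920 in mock arrays of 3 h. The higher sum at 12 h came from *YAB5* and *YAB4*, while *DL*, *YAB1*, *YAB2* and *YAB3* were lower there, with means of 142, 34.2, 156 and 60.4 in DEX arrays and 386, 221, 334 and 105 in mock arrays. Of 7 meristem markers 4 were found by name. Their sum was 303 to 321 in DEX arrays and 403 to 506 in mock arrays of 12 h, and 397 to 426 in DEX arrays and 400 to 472 in mock arrays of 3 h. At 12 h *OSH1*, *HOS3* and *HOS9* were lower, with means of 67.75, 69 and 94.08 in DEX arrays and 111, 131.7 and 157 in mock arrays. The marker *LOG* went the other way, with means of 80.95 in DEX arrays and 57.6 in mock arrays of 12 h. Of the expanded green leaf markers 3 of 6 were found by name, and their sum was 144 to 207 in DEX arrays and 2475 to 2571 in mock arrays of 12 h, against 1787 to 1979 in DEX arrays and 2076 to 2297 in mock arrays of 3 h. The 2 root markers of 7 that were found summed to 244 to 355 in DEX arrays and 64.0 to 68.9 in mock arrays of 12 h, and to 57.6 to 65.7 in DEX arrays and 53.9 to 58.9 in mock arrays of 3 h. Of these 2, *QHB* was higher at 12 h, and *Lsi2* had means of 48.6 in DEX arrays and 49.4 in mock arrays of 12 h and a change of -0.08 (adjusted p = 0.739). The 4 endosperm markers of 7 summed to 146 to 163 in DEX arrays and 126 to 141 in mock arrays of 12 h, and to 105 to 119 in DEX arrays and 117 to 141 in mock arrays of 3 h. The part of these shifts in the results that follow was not tested.

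Most of the response came between both times. The change was called higher in 2574 and lower in 3905 of the 15829 rows paired with 1 gene, and over all rows in 5693 (10.4%) and 10706 (19.5%). Over genes at 1 row each, as the gene lists below are counted, it was higher in 2496 (16.5%) and lower in 3848 (25.4%) of 15140. The lists hold only the genes found by name, and 1740 of the 15140 have a printable name, so a family can have more members on the array than its list. At 12 h DEX arrays were higher than mock arrays in 3565 of the 15829 rows and lower in 5002, and over all rows in 8203 (14.9%) and 15390 (28.0%). At 3 h they were higher in 81 of the 15829 rows and lower in none, where 312 were lower at an unadjusted p under 0.05, and over all rows 132 (0.240%) were higher and 2 (0.00364%) were lower. Over genes at 1 row each, 79 of 15140 were called at 3 h, so most lists can be expected to hold few such genes or none. The split of the called changes by direction moved with the scaling of the arrays: 34.7% of them were higher as deposited and 46.2% after quantile normalization.

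Sorting gave a large late class and a small early one. Late only rows numbered 2466 higher and 3854 lower, which is 15.6% and 24.3% of the rows paired with 1 gene. The growing class held 60 rows, the sustained class 17 and the transient class 4, all of them higher with DEX at 3 h. No row was waning or reversed in limma. A further 1022 rows higher and 1148 lower at 12 h were called at neither 3 h nor for the change, so whether these effects were present at 3 h is unsettled, 95 rows had a called change with no called effect at either time, and 7163 rows had no call. Of the rows called at 3 h, 20 belong to genes with a printable name, and among the others *LOC4330827* and *LOC4324781* had the largest 3 h effects, 3.98 and 3.07 on the log2 scale, both growing.

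**Figure D1:**
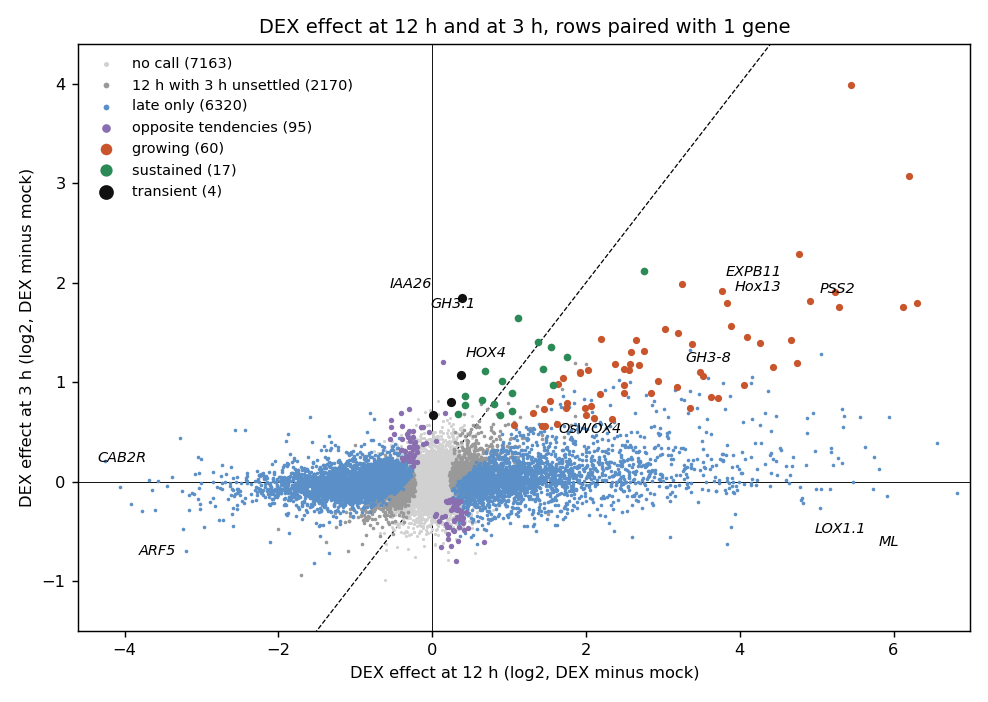
Each point is one of the 15829 rows paired with 1 gene, with its DEX effect at 12 h on the horizontal axis and at 3 h on the vertical axis, both as log2 of DEX over mock, colored by response class; the dashed line marks equal effects. The 6320 late only rows lie along the horizontal axis, the 60 growing rows lie right of the dashed line and the 17 sustained rows had no called change.

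The early classes rest on the spread shared by all 12 arrays. When the 6 arrays of each time were fitted alone, an alternative chosen after seeing the data, 3 rows were growing and none was sustained or transient. In that limma fit the 20 named genes had an adjusted p of 0.0621 to 0.324 at 3 h. DEX and mock arrays of 3 h did not overlap in any of these 20 genes. They were chosen by their 3 h effect in these arrays, so this adds no support of its own. Of these 20 genes, 7 kept the 3 h call when any one array was left out: *Hox13*, *GH3-8*, *PGIP-1*, *ASA2*, *DOF4*, *GH3.1* and *HOX4*. Among the fits that left out 1 array, those without replicate 1 or 3 of the mock arrays of 3 h gave the fewest, with 29 and 31 growing, 8 and 8 sustained, and 0 and 1 transient rows.

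The 12 h effect shares no array with the 3 h effect, although both calls use the spread of all 12 arrays. Of the 81 rows higher at 3 h, 77 were called higher at 12 h, beside 3565 of all 15829 rows paired with 1 gene. In these 77 rows the 3 h effect was a median of 46.8% of the 12 h effect on the log2 scale, with quartiles of 35.5% and 61.3%. The choice of rows that were high at 3 h can raise this share, so it is a description. The change itself contains the 3 h arrays with a minus sign and the rows were chosen for being high there, so that the 60 called higher for it and the 4 called lower are given as a description.

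Among the growing genes were several that encode transcription factors. *Hox13*, which encodes a class I HD-Zip protein, had signals of 1001, 1058 and 1130 in DEX arrays against 73.3, 78.8 and 72.4 in mock arrays of 12 h. At 3 h it had 305, 211 and 226 in DEX arrays against 72.7, 68.6 and 69.5 in mock arrays. DEX and mock arrays were apart at both times, and the mock arrays lay at one level. The DEX effect was 3.83 at 12 h and 1.80 at 3 h on the log2 scale (SE 0.13 each), and the change was 2.03 (SE 0.18, adjusted p = 1.33e-05 in limma).

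*DOF4*, a gene for a zinc finger factor of the DOF family, had 2935, 3140 and 3126 in DEX arrays against 525, 573 and 541 in mock arrays of 12 h, and 1040, 967 and 778 in DEX arrays against 430, 489 and 354 in mock arrays of 3 h. Its effect was 2.49 at 12 h and 1.13 at 3 h, and the change was 1.36 (SE 0.19, adjusted p = 0.000287). *DOF5* had effects of 1.998 at 12 h and 0.67 at 3 h, with a change of 1.33. Its 3 h call (adjusted p = 0.0334 in limma) was lost in 10 of the fits that left out 1 array. Of the 4 named *DOF* genes these 2 grew, *DOF2* was late only and lower with a change of -0.71, and *DOF1* was not called.

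*HSFA4B*, a class A heat shock factor gene, had 523, 539 and 513 in DEX arrays against 72.8, 65.3 and 67.4 in mock arrays of 12 h, and 170, 137 and 120 in DEX arrays against 70.7, 80.0 and 60.8 in mock arrays of 3 h, with a change of 1.93 (SE 0.19, adjusted p = 2.72e-05). *GL2-4*, a homeobox gene of the GLABRA2 type, had effects of 3.18 at 12 h and 0.95 at 3 h, and *OsC3H50*, a CCCH zinc finger gene, 2.18 at 12 h and 0.88 at 3 h. All of these genes were above mock in every DEX array at both times, and they were chosen for being high at 3 h.

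The leaf gene *YAB5* of the YABBY family had the smallest 3 h effect of the 16 named growing genes. Its signals were 1770, 1883 and 1797 in DEX arrays against 672, 684 and 674 in mock arrays of 12 h, and 1116, 990 and 1132 in DEX arrays against 723, 716 and 762 in mock arrays of 3 h. The change was 0.87 (SE 0.12, adjusted p = 0.000262). The 3 h call of *YAB5* (adjusted p = 0.0246 in limma) was lost in 8 of the fits that left out 1 array. The *YABBY* genes did not move together: *YAB4* was late only and higher, with a change of 1.63 (SE 0.13, adjusted p = 5.58e-06), and *YAB1*, *DL*, *YAB2* and *YAB3* were late only and lower, with changes of -2.68, -1.49, -1.11 and -0.75. Of these 4, *YAB3* was no longer called after quantile normalization or median centring, and *YAB1* had a mock difference of 0.60 between 12 h and 3 h.

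The silenced gene itself lay among the growing genes by its row on the array. *OsWOX4* had 364, 389 and 432 in DEX arrays against 134, 149 and 126 in mock arrays of 12 h, and 194, 245 and 262 in DEX arrays against 117, 140 and 142 in mock arrays of 3 h. The effect was 1.54 at 12 h and 0.81 at 3 h, and the change was 0.73 (SE 0.19, adjusted p = 0.0134). The row may read the RNAi transcript together with the endogenous mRNA, which these values do not separate, so it checks nothing about the labels. Of the other named *WOX* genes, *QHB*, known for its expression in the quiescent center of the root, was late only, with 303, 196 and 308 in DEX arrays against 22.1, 16.6 and 14.6 in mock arrays of 12 h, and 24.5, 17.5 and 19.3 in DEX arrays against 15.98, 17.7 and 16.6 in mock arrays of 3 h (change 3.64, SE 0.29, adjusted p = 5.58e-06). *WOX6* and *WOX7* were not called for the change.

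**Figure D2:**
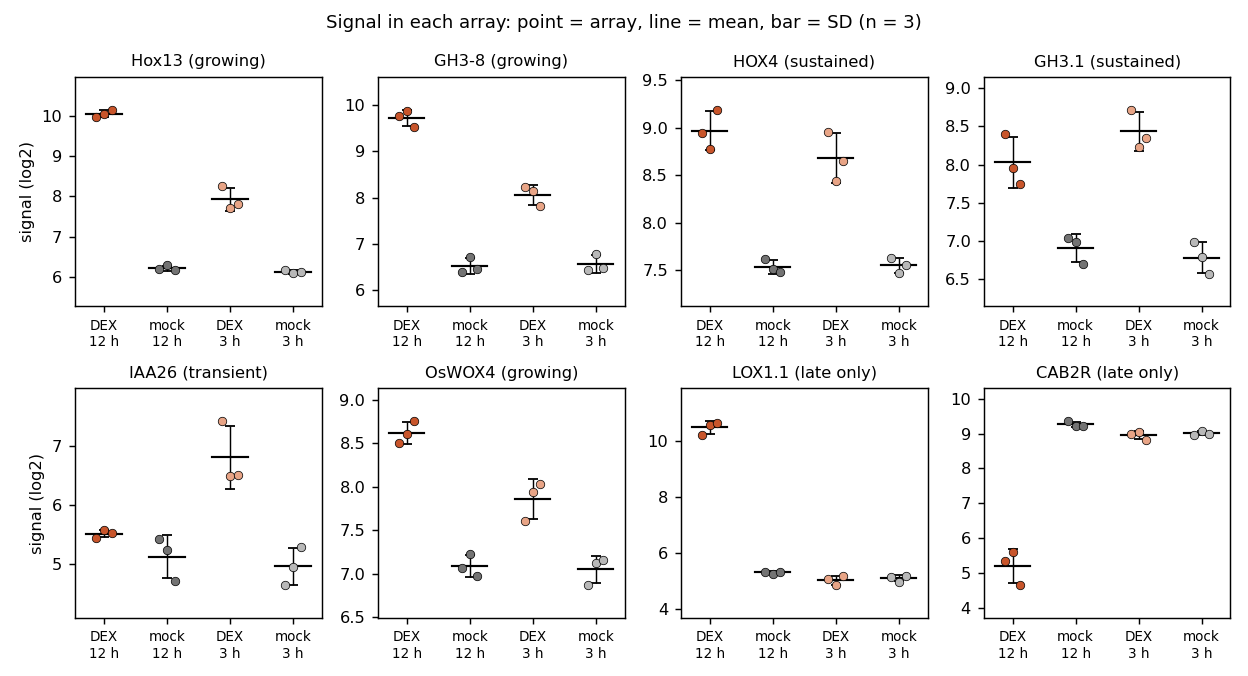
Log2 signal of 8 genes in each of the 12 arrays, with columns for DEX 12 h, mock 12 h, DEX 3 h and mock 3 h, points for arrays, lines for means and bars for the SD (n = 3). In *Hox13* and *GH3-8* the DEX arrays of 12 h lie above those of 3 h, in *HOX4* and *GH3.1* the DEX arrays of both times share a range, in *IAA26* only the DEX arrays of 3 h stand clearly above mock, and in *LOX1.1* and *CAB2R* only the DEX arrays of 12 h stand apart.

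Growing genes with other roles act in the cell wall, in amino acid metabolism and in signaling. *EXPB11*, for a β-expansin that loosens cell walls, had 582, 579 and 739 in DEX arrays against 64.2, 44.3 and 34.5 in mock arrays of 12 h, and 203, 160 and 123 in DEX arrays against 30.9, 52.8 and 44.99 in mock arrays of 3 h (change 1.85, SE 0.37, adjusted p = 0.00290). *PGIP-1*, for an inhibitor of pectin-degrading polygalacturonases, had 5888, 6592 and 5930 in DEX arrays against 1026, 1096 and 1011 in mock arrays of 12 h, and 2585, 2211 and 2057 in DEX arrays against 996, 1206 and 947 in mock arrays of 3 h (change 1.43, SE 0.17, adjusted p = 8.57e-05). *ASA2* encodes the α subunit of anthranilate synthase, which starts tryptophan synthesis. It had 3010, 3038 and 2862 in DEX arrays against 230, 267 and 308 in mock arrays of 12 h, and 638, 570 and 484 in DEX arrays against 283, 258 and 246 in mock arrays of 3 h (change 2.38, SE 0.18, adjusted p = 5.17e-06).

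*PSS2* had the largest change of the named growing genes, 3.1 (SE 0.34, adjusted p = 5.22e-05), with effects of 4.91 at 12 h and 1.81 at 3 h. Its DEX arrays of 3 h were uneven, at 365, 213 and 155, and all lay above the mock arrays of 3 h, at 60.8, 73.8 and 61.8. *4CLL4*, for an enzyme like 4-coumarate-CoA ligase, the protein kinase gene *CIPK21* and the phosphatase gene *OsPP2C09* had changes of 1.96, 0.92 and 1.24. In these 3 genes the 3 h effect was 31.3%, 55.0% and 37.4% of the 12 h effect, shares that the choice by a high 3 h effect can raise. Their 3 h calls were lost in 1, 2 and 10 of the fits that left out 1 array.

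**Figure D3:**
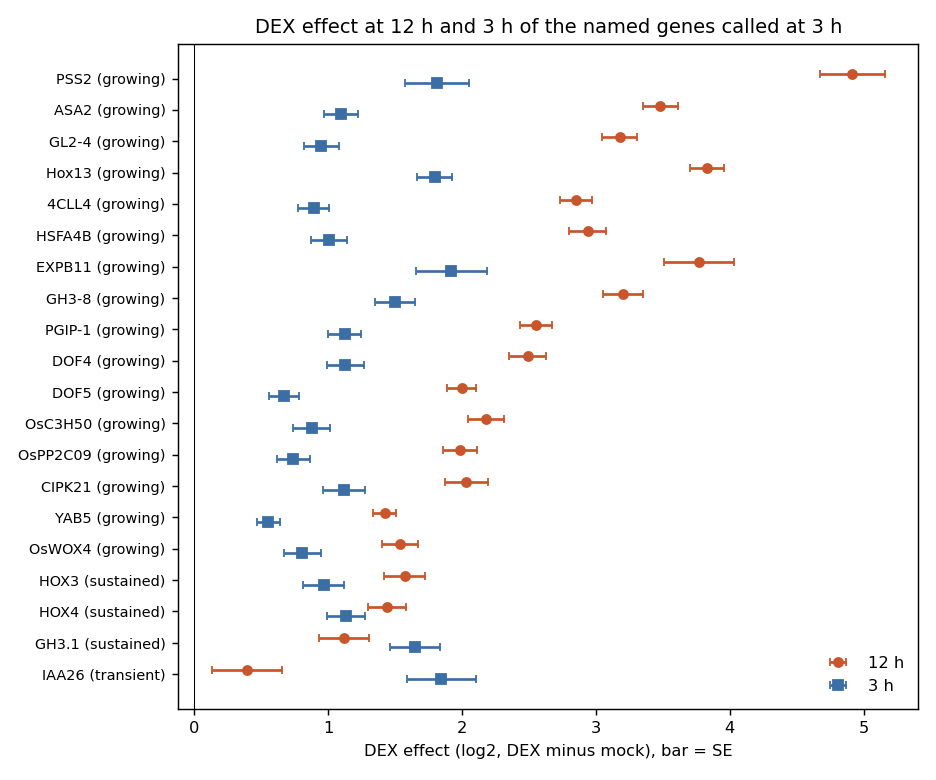
DEX effect (log2, DEX minus mock) at 12 h (circles) and at 3 h (squares) of the 20 named genes called at 3 h, with bars for the SE. In the 16 growing genes the 12 h effect lies right of the 3 h effect, in *HOX3* and *HOX4* it lies right as well with no called change, and in *GH3.1* and *IAA26* the 12 h effect lies left.

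Only 3 named genes were sustained, a pair of homeobox genes and a gene of auxin conjugation. *HOX4*, of HD-Zip class I, had 492, 440 and 584 in DEX arrays against 195, 182 and 178 in mock arrays of 12 h, and 498, 346 and 400 in DEX arrays against 197, 177 and 187 in mock arrays of 3 h. The DEX arrays of both times overlapped, and the change was 0.31 (SE 0.20, adjusted p = 0.282). *HOX3*, of HD-Zip class II, had effects of 1.57 at 12 h and 0.97 at 3 h, and its change of 0.61 (SE 0.21, adjusted p = 0.0540) lay just outside the threshold that separates sustained from growing. The change of *HOX3* was called after quantile normalization (0.81, adjusted p = 0.0105) and median centring (adjusted p = 0.0322), with the offset, the variance trend and both filters on dim rows, in both fits on fewer rows paired with genes, and without replicate 1 of the DEX or of the mock arrays of 3 h. A missed threshold does not show that both effects were equal. The 3 h call of *HOX3* (adjusted p = 0.0277 in limma) was lost in 7 of the fits that left out 1 array.

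HD-Zip proteins combine a homeodomain with a leucine zipper, and those of class III are known for their part in leaf polarity and vascular development. Of the 17 named *HD-Zip* genes, *Hox13*, *HOX4* and *HOX3* were called at 3 h. The class III genes *Hox9*, *HOX33*, *hox32* and *HOX10* were late only and lower, with changes of -1.39, -1.12, -0.93 and -0.73 and 3 h effects of -0.11, -0.04, -0.02 and -0.11. *HOX5* was late only and lower and *HOX12* late only and higher, with changes of -1.08 and 0.97. The median change of the list was -0.03, beside -0.07 over all rows, and was 0.04 after median centring.

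GH3 enzymes join amino acids to acyl acids, many of them to auxin, and the 7 named *GH3* genes divided between the classes. *GH3.1* was sustained, with 336, 247 and 215 in DEX arrays against 131, 127 and 104 in mock arrays of 12 h, and 420, 301 and 327 in DEX arrays against 127, 111 and 95.4 in mock arrays of 3 h. Its effect was 1.12 at 12 h and 1.65 at 3 h, and the change of -0.53 was not called (SE 0.26, adjusted p = 0.164). *GH3-8* was growing, with 874, 934 and 742 in DEX arrays against 84.5, 105 and 88.0 in mock arrays of 12 h, and 299, 284 and 224 in DEX arrays against 86.5, 110 and 88.9 in mock arrays of 3 h (change 1.70, SE 0.21, adjusted p = 0.000119).

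*GH3.6* was late only and higher, with a change of 1.80 (SE 0.19, adjusted p = 3.83e-05) and a 3 h effect of -0.29. *GH3.5* and *GH3.11* were late only and lower, with changes of -1.29 and -0.64, and *GH3.11* was no longer called after quantile normalization (adjusted p = 0.0609). *GH3.2* and *GH3.7* were not called for the change. The list thus had 2 called changes in each direction, beside 16.5% higher and 25.4% lower of all genes, and a median change of -0.12.

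*IAA26* was the only named transient gene. It belongs to the Aux/IAA genes, which encode short-lived repressors of auxin response and are themselves often induced by auxin. *IAA26* had 43.6, 47.5 and 46.1 in DEX arrays against 42.7, 37.7 and 26.2 in mock arrays of 12 h, and 172, 90.0 and 91.1 in DEX arrays against 25.1, 30.8 and 39.1 in mock arrays of 3 h. The DEX arrays of 3 h lay above all other arrays, with replicate 1 highest. The effect was 0.39 at 12 h (SE 0.26, adjusted p = 0.257) and 1.85 at 3 h, and the change was -1.45 (SE 0.37, adjusted p = 0.0112), which was called in every alternative fit that held its row and not at an adjusted p under 0.01. Its 3 h call was lost without replicate 1 or 2 of the mock arrays of 3 h, with an adjusted p of up to 0.0817. This call was also lost in the unmoderated test and in limma on the arrays of 3 h alone (adjusted p = 0.231). At 12 h the DEX arrays, at 43.6 to 47.5, lay above the mock arrays, at 26.2 to 42.7. The missed call at 12 h thus does not show that no effect remained.

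The other named *Aux/IAA* genes differed from it. Of the 19 named ones, 8 others were called lower for the change and were late only, beside 25.4% lower of all genes. The most negative was *IAA10*, with 102, 72.0 and 66.9 in DEX arrays against 858, 882 and 849 in mock arrays of 12 h, and 769, 800 and 818 in DEX arrays against 819, 803 and 841 in mock arrays of 3 h (change -3.41, SE 0.19, adjusted p = 8.28e-07). *IAA24* followed with a change of -2.39. *IAA2* and *IAA18* were late only and higher, with changes of 1.499 and 1.45. *ARF5*, an auxin response factor gene, was late only with a change of -3.32 (SE 0.34, adjusted p = 2.97e-05) and signals of 59.9, 34.1 and 55.5 in DEX arrays against 529, 685 and 568 in mock arrays of 12 h, and 329, 535 and 385 in DEX arrays against 440, 616 and 453 in mock arrays of 3 h.

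Of the late only rows, most had a 3 h effect close to 0. The 95% interval of the 3 h effect lay within 1.5-fold in either direction in 1850 of the 2466 late only rows that were higher (75%) and in 3623 of the 3854 that were lower (94.0%), and in 12812 of all 15829 rows (80.9%). At an unadjusted p under 0.05, the 3 h effect had the direction of the 12 h effect in 229 of the higher and 50 of the lower late only rows, and the other direction in 54 and 36. A late only call therefore does not show that nothing had moved at 3 h. *IMCEL2* and *4CL3*, a gene for 4-coumarate-CoA ligase of phenylpropanoid synthesis, had 3 h effects of 1.05 and 1.28 with adjusted p of 0.0514 and 0.0527, just outside the call that would have made them growing.

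The rows called at 12 h were followed back to the 3 h arrays, which share no array with the 12 h effect. In the 1484 rows higher at 12 h by 1 or more on the log2 scale, the median 3 h effect was 0.10, and 69.8% of them were above 0 at 3 h, beside 50.2% of all rows paired with 1 gene. In the 1682 rows lower at 12 h by 1 or more, the median 3 h effect was -0.038, and 64.9% were below 0. That median was -0.022 without replicate 1 of the mock arrays of 3 h and -0.025 without replicate 2 of the DEX arrays of 3 h. As a part of the 12 h effect the 3 h effect was a median of 5.35% in the higher rows and 2.80% in the lower rows. The higher rows with a 12 h effect of 3 or more had a median 3 h effect of 0.21, over 221 rows, and the lower rows of that size had -0.08, over 28 rows. These values are a description, since rows are not replicates.

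**Figure D4:**
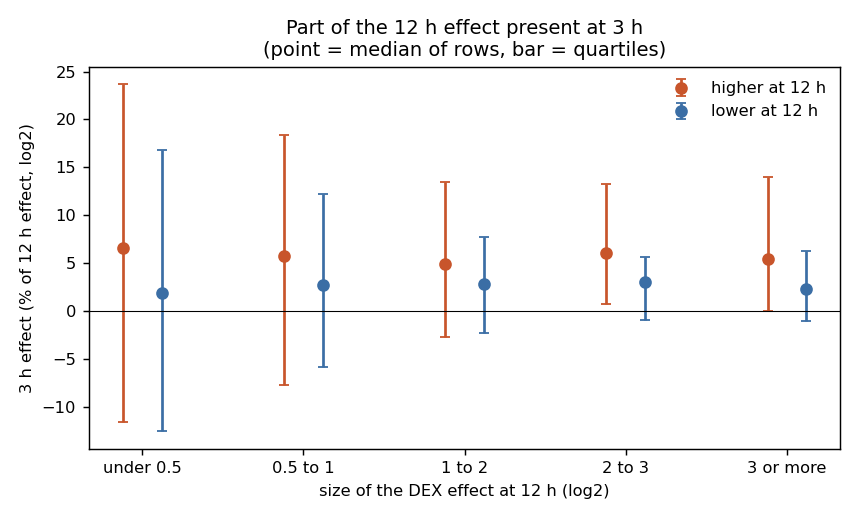
DEX effect at 3 h as a percentage of the DEX effect at 12 h, both on the log2 scale, for rows paired with 1 gene that were called higher or lower at 12 h, by the size of the 12 h effect (horizontal axis, log2); points are medians and bars quartiles over rows. The medians lie between 4.92% and 6.52% for the higher rows and between 1.91% and 2.96% for the lower rows.

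Among named genes, *ML*, also called *salT* and encoding a mannose-binding lectin, had the largest change. Its signals were 1485, 1702 and 1763 in DEX arrays against 28.5, 27.8 and 25.8 in mock arrays of 12 h, and 29.1, 27.2 and 18.7 in DEX arrays against 24.0, 29.1 and 28.9 in mock arrays of 3 h. DEX and mock arrays were far apart at 12 h and overlapped at 3 h, and the change was 6.06 (SE 0.23, adjusted p = 8.82e-08).

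*AOX1a*, for the alternative oxidase of mitochondria, had 1595, 1159 and 1445 in DEX arrays against 44.6, 40.0 and 41.8 in mock arrays of 12 h, and 38.0, 38.0 and 33.8 in DEX arrays against 43.1, 39.5 and 50.2 in mock arrays of 3 h (change 5.31, SE 0.19, adjusted p = 8.82e-08). *Cht-3*, a chitinase gene, had 524, 431 and 545 in DEX arrays against 16.4, 15.02 and 22.2 in mock arrays of 12 h, and 11.6, 24.8 and 27.6 in DEX arrays against 19.4, 30.0 and 21.5 in mock arrays of 3 h (change 5.04, SE 0.42, adjusted p = 7.73e-06). Of 7 chitinase genes 5 were higher for the change and none was lower, beside 16.5% and 25.4% of all genes, with a median change of 1.29. *HSFA4D*, *EXPB6* and *OC-I*, which encodes the cysteine protease inhibitor oryzacystatin, had changes of 4.67, 4.80 and 3.69.

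Of the 30 expansin genes, 8 were higher and 3 lower for the change, beside 16.5% and 25.4% of all genes, and *EXPB11* alone was called at 3 h. *EXPA6* was the most negative, with a change of -2.41 (SE 0.29, adjusted p = 8.96e-05). The 14 named heat shock factor genes had 7 higher and 2 lower changes, beside the same shares of all genes. Their median was 1.02, and *HSFA4B* alone was called at 3 h.

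Jasmonate (JA) is made from linolenic acid by lipoxygenase, allene oxide synthase, allene oxide cyclase and oxophytodienoate reductase, and JAZ proteins repress the response to it. The lipoxygenase gene *LOX1.1* is not in the list of JA synthesis counted below, and whether it acts in JA synthesis was not tested. It had 1198, 1518 and 1602 in DEX arrays against 40.3, 37.8 and 40.5 in mock arrays of 12 h, and 33.3, 29.0 and 36.3 in DEX arrays against 35.7, 31.6 and 36 in mock arrays of 3 h. The change was 5.25 (SE 0.18, adjusted p = 8.79e-08). Of 12 genes in the list of JA synthesis, 10 were higher and 1 lower for the change, beside 16.5% and 25.4% of all genes. The median was 1.26, and all 12 had a 3 h effect between -0.19 and 0.19.

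By step, the lipoxygenase genes *CM-LOX1* and *LOX2* had changes of 2.12 and 0.59. The allene oxide synthase genes *AOS2* and *AOS1* had changes of 2.86 and 1.61, and *AOS4* had -0.13 and was not called. The cyclase gene *aoc* had 1.31. The reductase genes *OPR10*, *OPR1*, *OPR5*, *OPR3* and *OPR13* had changes of 5.06, 1.80, 1.21, 1.17 and 1.14, and *OPR8* was lower with -0.96. These genes were picked by name, and which of them act in JA synthesis was not tested. *OPR10* had 879, 791 and 1008 in DEX arrays against 24.6, 21.9 and 40.7 in mock arrays of 12 h, and 25.4, 28.6 and 23.7 in DEX arrays against 25.1, 31.98 and 24.9 in mock arrays of 3 h.

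Among 5 JAZ repressor genes, 4 were higher for the change and 1 was not called, and the 3 h effects lay between -0.17 and 0.05. *TIFY11C* had 194.5, 329.5 and 212 in DEX arrays against 15.1, 14.4 and 15.6 in mock arrays of 12 h, and 18.5, 16.2 and 11.7 in DEX arrays against 13.7, 18.4 and 13.96 in mock arrays of 3 h (change 3.99, SE 0.30, adjusted p = 4.79e-06). *TIFY10C*, *TIFY10A* and *TIFY6B* had changes of 3.64, 2.05 and 1.08, and *TIFY6A* had 0.29 and an adjusted p of 0.199. Of 5 WRKY and 7 NAC factor genes 4 and 6 were higher for the change and none was lower, with medians of 2.36 and 1.87. Over all genes, 16.5% were higher and 25.4% lower for the change.

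The transcription factor gene *WRKY62* had 286, 310 and 341 in DEX arrays against 21.9, 20.6 and 22.6 in mock arrays of 12 h, and 22.6, 21.1 and 21.2 in DEX arrays against 20.4, 20.8 and 23.4 in mock arrays of 3 h (change 3.83, SE 0.14, adjusted p = 8.82e-08). *WRKY71* had a change of 3.47, and *NAC6* and *NAC8* had 2.89 and 2.40. Among the other large positive changes were 4.13 for *OsNrx1-1*, for a nucleoredoxin, 4.10 for the phosphate transporter gene *PHT3* and 3.79 for *SCAMP4*, for a secretory carrier membrane protein. In *PHT3* the mock arrays of both times had signals of 7.22 to 12.2, near the low end of the scale, where a fold is uncertain. The mock signals of *TIFY11C*, *QHB*, *Cht-3* and other genes above also lay below the median signal of the arrays, so the sizes of their folds are less certain.

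Of 11 MAP kinase genes 4 were higher and none lower for the change, beside 16.5% and 25.4% of all genes. The largest change was that of *MAPK5*, with 660, 871 and 536 in DEX arrays against 57.8, 63.2 and 61.8 in mock arrays of 12 h, and 84.4, 75.5 and 64.0 in DEX arrays against 48.1, 51.0 and 52.6 in mock arrays of 3 h (change 2.92, SE 0.23, adjusted p = 5.58e-06). Its DEX arrays lay above mock at 3 h too, with an effect of 0.55 that was not called (adjusted p = 0.435). After quantile normalization 6 of the 11 were called higher. Of 51 genes for calcium-linked kinases and sensors 18 were higher and 7 lower, beside 16.5% and 25.4% of all genes, with a median change of 0.25. *CIPK23* and *CIPK29* had changes of 2.71 and 2.54, and *CIPK7* had -1.37. Of 71 ion and metal transporter genes 22 were higher and 8 lower, beside the same shares of all genes. The metal transporter genes *NRAMP5* and *ZIP3*, among the lower ones, had changes of -2.43 and -2.27.

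In the brassinosteroid list of 8 genes 3 were higher and 2 lower for the change, beside 16.5% and 25.4% of all genes. *D11* and *CYP90B2*, for cytochrome P450 enzymes of brassinosteroid synthesis, had changes of 2.21 and 2.34, and *CYP734A6*, for an enzyme of brassinosteroid breakdown, had -1.40 with a mock difference of 0.84 (adjusted p = 0.297). *CYP90A3*, also of synthesis, and *CYP734A2*, also of breakdown, went the other way, with called changes of -0.91 and 0.68. In the gibberellin list of 12 genes 4 were higher and 2 lower, beside 16.5% and 25.4% of all genes, with a median change of 0.05. The higher ones were *KO1*, *CPS4*, *gid1* and *DTC1*. The list was picked by name, and which of its genes act in the gibberellin pathway was not tested. Its counts are therefore no measure of that pathway. *GA20OX3*, for a late step of gibberellin synthesis, had a change of -1.75 (SE 0.21, adjusted p = 8.57e-05).

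*CPS1*, for the enzyme that starts gibberellin synthesis, had 40.2, 48.1 and 49.3 in DEX arrays against 153, 140 and 111 in mock arrays of 12 h, and 65.6, 75.4 and 65.5 in DEX arrays against 106, 144 and 116 in mock arrays of 3 h. DEX and mock arrays were apart at both times. The effect was -1.54 at 12 h and -0.82 at 3 h (SE 0.15, adjusted p = 0.0727), and the change of -0.72 (SE 0.21, adjusted p = 0.0250) placed it in the late only class. That call was lost in 6 fits that left out 1 array, with an adjusted p of up to 0.0615.

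Of 20 genes for cytokinin signaling and breakdown, 1 was higher and 6 were lower for the change, and the share of lower genes is near the 25.4% of all genes. The response regulator gene *RR2* had a change of -0.98 with a 3 h effect of -0.44 (adjusted p = 0.183). Type-A response regulators such as *RR2* are induced by cytokinin. *RR2* had 105, 101 and 86.2 in DEX arrays against 262, 256 and 260 in mock arrays of 12 h, and 178, 183 and 188 in DEX arrays against 259, 228 and 258 in mock arrays of 3 h, and these arrays did not overlap at either time.

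The most negative change among named genes belonged to a light-harvesting gene. *CAB2R*, for a chlorophyll a/b-binding protein, had 40.6, 48.9 and 25.3 in DEX arrays against 653, 597 and 595 in mock arrays of 12 h, and 509, 527 and 453 in DEX arrays against 496, 535 and 509 in mock arrays of 3 h. DEX and mock arrays were apart at 12 h and overlapped at 3 h, and the change was -4.01 (SE 0.27, adjusted p = 2.35e-06). *RCABP69*, of the same family, had a change of -3.69. All 6 named genes of light harvesting and photosystems were late only and lower, beside 25.4% lower of all genes. These 6 had a median change of -1.89 and 3 h effects between -0.24 and 0.10. These genes include the expanded green leaf markers whose sums are given above.

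Genes of DNA replication and cell division moved later than 3 h as well. Of 19 replication genes, 18 were late only and lower for the change, with a median of -1.43, and their 3 h effects lay between -0.14 and 0.11. *RPA1B*, a subunit gene of the single-strand binding complex, and *POLD1*, for the catalytic subunit of DNA polymerase δ, had changes of -2.29 and -1.91, while *ORC2* had -0.30 and was not called. Of 22 kinesin genes, which encode microtubule motors, 19 were lower and 1 was higher, with a median of -1.11. Of 10 genes for cytosolic ribosomal proteins 9 were lower, or 5 after quantile normalization. Over all genes, 25.4% were lower and 16.5% higher for the change.

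Of 21 cyclin genes 10 were lower for the change and 1 was higher, beside 25.4% and 16.5% of all genes. After quantile normalization 8 were lower. *CYCA3-1* had 79.6, 53.7 and 62.4 in DEX arrays against 354, 366 and 360 in mock arrays of 12 h, and 400, 309 and 403 in DEX arrays against 386, 350 and 379 in mock arrays of 3 h (change -2.47, SE 0.21, adjusted p = 8.40e-06). *CYCD2-2* and *CYCD3-2* had changes of -2.39 and -2.02. *Rbr1*, for a retinoblastoma-related regulator of the G1/S transition, had -1.75, and *CDKB1-1*, for a plant-specific cyclin-dependent kinase, had -0.71. None of the cyclin genes was called at 3 h, beside 79 of all 15140 genes.

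The other most negative changes among named genes belonged to genes with varied roles. *ER2*, for a receptor kinase of the ERECTA family, had 269, 140 and 166 in DEX arrays against 1249, 1381 and 1345 in mock arrays of 12 h, and 1205, 1439 and 1422 in DEX arrays against 1427, 1317 and 1319 in mock arrays of 3 h (change -2.84, SE 0.27, adjusted p = 2.10e-05). The aspartic protease gene *AP25* had -3.04, *EGY2* and *HCF101*, both for chloroplast proteins, had -2.66 and -2.48, and *LP02* had -2.46. *APY3*, an apyrase gene, had -2.45 with a mock difference of 0.55 (adjusted p = 0.275).

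The *KNOX* genes, several of which maintain the meristem, were late only or not called. *OSH1*, *HOS3* and *HOS9* were lower, with changes of -0.68, -0.94 and -0.64, and after quantile normalization or median centring 1 *KNOX* gene was called lower. The call of *OSH1* (adjusted p = 0.0390) was also lost without DEX 12 h replicate 2 (adjusted p = 0.0849) and in other fits that left out 1 array. *HOS59* and *HOS66* were higher, with changes of 1.23 and 1.03. The list of 7 thus had 2 higher and 3 lower changes, beside 16.5% and 25.4% of all genes. All 7 *KNOX* genes had a 3 h effect between -0.10 and 0.13.

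In the list of Argonaute and Dicer-like genes, which act in RNA silencing, 2 of 14 were higher and 6 lower for the change, beside 16.5% and 25.4% of all genes. *AGO18* and *DCL2A* had changes of 2.75 and 1.49, and *AGO4A* and *MEL1* had -1.28 and -1.23. None of the 14 was called at 3 h, beside 79 of all 15140 genes, and their 3 h effects lay between -0.20 and 0.20.

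LOG enzymes release active cytokinin, and 2 of the 6 named ones were lower and 2 higher for the change, beside 25.4% and 16.5% of all genes. *LOGL3* had 59.0, 42.8 and 41.2 in DEX arrays against 249, 224 and 213 in mock arrays of 12 h, and 184, 198 and 167 in DEX arrays against 173, 195 and 178 in mock arrays of 3 h (change -2.28, SE 0.20, adjusted p = 1.01e-05). *LOGL10* had a change of -1.81. *LOGL7* and *LOG* were late only and higher, with changes of 0.71 and 0.65, and the median change of the list was -0.08, or 0.04 after quantile normalization. *OsPNH1*, an Argonaute gene expressed in leaf primordia, had a change of -0.003 (SE 0.16, adjusted p = 0.991), with effects of 0.06 at 12 h and 0.07 at 3 h.

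**Figure D5:**
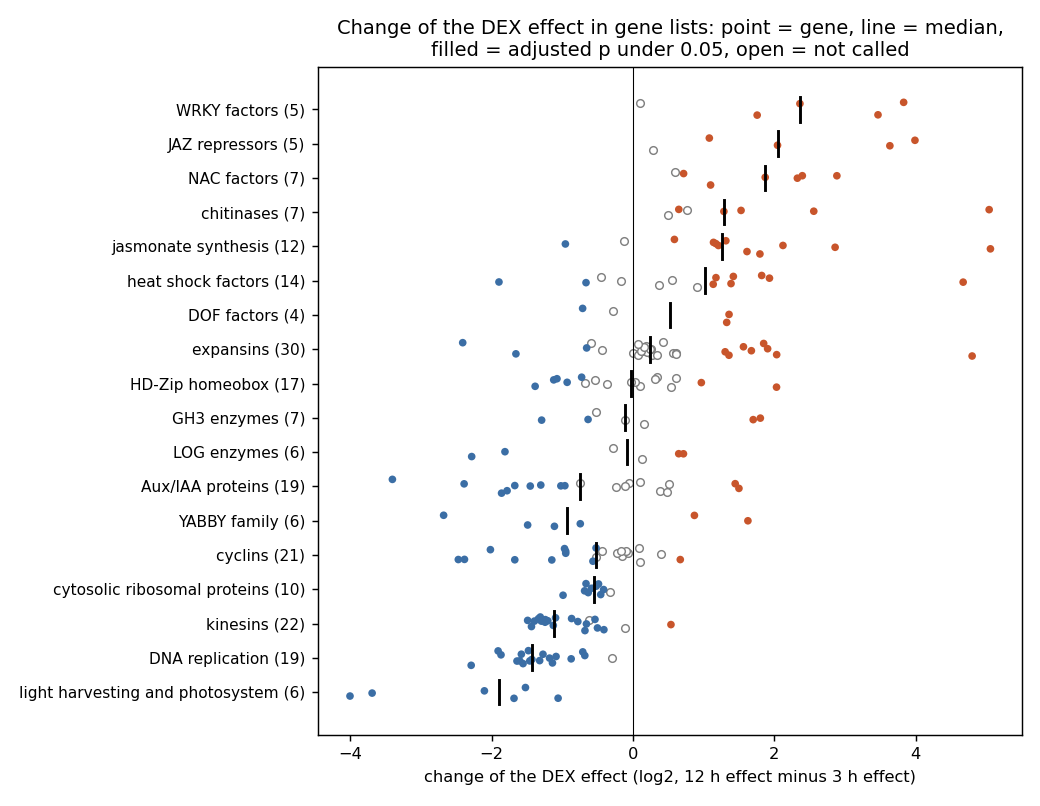
Change of the DEX effect (log2, 12 h effect minus 3 h effect) of the genes of 18 lists, 1 point per gene, filled where called at an adjusted p under 0.05 and open where not, with a line at each median and the number of genes in parentheses. The JAZ, WRKY, NAC and chitinase genes lie mostly right of 0, the light-harvesting, replication and kinesin genes mostly left, and the *GH3*, *HD-Zip*, *LOG* and *YABBY* genes on both sides.

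Rows with a called change and no called effect at either time numbered 48 with a positive and 47 with a negative change. The 6 named genes among them had 12 h and 3 h effects of opposite sign, each short of the call. *catA*, a catalase gene, had 30.1, 30.9 and 41.1 in DEX arrays against 41.7, 56.1 and 45.3 in mock arrays of 12 h, and 38.5, 39.9 and 27.7 in DEX arrays against 21.4, 33.2 and 22.2 in mock arrays of 3 h. Its change was -0.97 (SE 0.30, adjusted p = 0.0280), and its mock arrays differed by 0.92 between 12 h and 3 h, with an adjusted p of 0.240. The call of *catA* was lost in the unmoderated test (adjusted p = 0.0602) and in 7 fits that left out 1 array (adjusted p of up to 0.0688). At the edge of the call for the change, *MT21A* lay just inside, with a change of 0.50 (adjusted p = 0.0499) that lost its call in 10 of the fits without 1 array, and *OsMac1* just outside, with -0.34 (adjusted p = 0.0508).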

How the data were processed

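RNA of shoot apices was hybridized to 12 Affymetrix rice gene arrays of 1 color, 3 for each of 4 groups taken from the labels. The deposited values are log2 signals, normalized by the authors in Affymetrix Expression Console 1.3 per the labels, and were used as deposited; signals printed per array are their antilog. The table holds 0 columns outside the 12 arrays, and the genome build behind it is not given in the sources used here. The annotation names a single gene for 15829 of the 54922 rows, more than 1 gene for 440 and no gene for 38653; all 15140 genes matched the RefSeq table of assembly ASM3414082v1, used for names only, and 1740 have a printable name. Where a gene had more than 1 row, the row with the highest mean stands for it, and lists were counted over 1 row per gene.

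Group means of all 12 arrays were fitted without a block in limma 3.58.1 under R 4.3.3, variances were moderated by eBayes, and the Benjamini-Hochberg correction ran across the whole table. The fit was tested on simulated data. The 95% intervals of the 3 h effect used 8 residual degrees of freedom. Members, lists and tests were chosen with earlier results of these data known. Named are the 12 most positive and 12 most negative changes among named genes, those of the early classes (up to 15 each by 3 h effect), the 12 largest late only effects each way, the largest 2 each way in each list, genes the study names, and genes at the thresholds; other list members and genes with signs that differ between times were added after their values were seen. Genes so chosen that the text does not describe are counted with their class or list. Lists had at least 3 members (49 of 52) and were picked by patterns on symbols and synonyms.

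Alternatives tried were quantile normalization, median centring, filters at the 25th percentile and the median of mean signal, an offset of 32 before the log, a variance trend, an unmoderated test, an adjusted p under 0.01, a fold of at least 2.0 with unadjusted p under 0.01, only rows of 1 gene, 1 row per gene, identical rows counted once (50208 rows), a replicate block and dropping every array in turn. Fitting the arrays of each time alone was added after seeing the data. Sequences and promoter motifs were not analysed here. Figures were drawn with matplotlib 3.10.9.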

Additional observations from a re-analysis of the deposited data

Results flagged for a closer look

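Of the named genes, 23 were singled out because the DEX effect at 12 h differed from that at 3 h in the test of the change itself (adjusted p under 0.05 in limma) and either the 3 h effect was called or neither effect was called and their signs were opposite. With a called 3 h effect and a change to higher, the values on the log2 scale were 3.1 for *PSS2*, 2.38 for *ASA2*, 2.23 for *GL2-4*, 2.03 for *Hox13*, 1.96 for *4CLL4*, 1.93 for *HSFA4B*, 1.85 for *EXPB11*, 1.70 for *GH3-8*, 1.43 for *PGIP-1*, 1.36 for *DOF4*, 1.33 for *DOF5*, 1.299 for *OsC3H50*, 1.24 for *OsPP2C09*, 0.92 for *CIPK21*, 0.87 for *YAB5* and 0.73 for *OsWOX4*. *IAA26*, higher at 3 h, had a change of -1.45.

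With effects of opposite sign and neither called, the change was 0.61 for *CIPK32* and 0.50 for *MT21A*, which were higher at 12 h and lower at 3 h. It was -0.97 for *catA*, -0.62 for *CIN4*, -0.58 for *Pi21* and -0.50 for *KIN14F*, which were lower at 12 h and higher at 3 h. Of these 6, *Pi21* alone kept the call at an adjusted p under 0.05 in all fits that held its row. It was lost for *catA* in the unmoderated test and 7 fits without 1 array, for *CIN4* with the offset, the variance trend and 3 such fits, for *KIN14F* after quantile normalization (adjusted p = 0.0573), for *CIPK32* in 5 such fits, and for *MT21A* with the offset, the variance trend, the unmoderated test, the replicate block and 10 such fits.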

How the results depend on the processing

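Counts are of rows paired with 1 gene unless all rows are named. Against 5693 higher and 10706 lower changes over all rows, there were 2874 and 4334 with 1 row per gene, 2945 and 4372 with rows of 1 gene alone (both test fewer rows), 3605 and 6779 at an adjusted p under 0.01, and 2671 and 4647 by the fold and p limits, which gave 1367 and 1588 in rows of 1 gene and 1250 and 1489 late only rows. Growing rows, 60, were 101 with 1 row per gene, 100 with rows of 1 gene alone, 38 in the unmoderated test, 30 at an adjusted p under 0.01, 37 by the fold and p limits and 3 with each time fitted alone. Sustained rows, 17, were 26 with rows of 1 gene alone, 10 at an adjusted p under 0.01, 9 in the unmoderated test and 0 with each time fitted alone. Transient rows, 4, were 13 with 1 row per gene, 14 with rows of 1 gene alone, 7 with the offset, 2 after median centring, 1 in the unmoderated test, and 0 at an adjusted p under 0.01 and with each time fitted alone. Waning or reversed rows, 0, were 3 with 1 row per gene and with rows of 1 gene alone, and 1 with the median filter, median centring, the offset and the variance trend. The cause was not tested.

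Leaving out 1 array gave 29 to 58 growing, 8 to 15 sustained, 0 to 4 transient and 0 to 1 waning or reversed rows; the lowest early counts came without replicate 1 of the mock arrays of 3 h. Late only counts were 3041 higher and 3152 lower after quantile normalization, against 2466 and 3854 as deposited, and within 1.5 times in the other settings but the fold and p limits. The median 3 h effect of rows lower at 12 h was -0.022 to -0.052 without 1 array, against -0.038 with all; it was not computed for the unmoderated test and the variance trend.

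With the replicate number as a block (replicate block), 46 rows were growing, 10 sustained, 2 transient and 1 waning or reversed, and 5438 and 10625 rows over all were higher and lower for the change. The labels give replicate numbers without saying whether these pair arrays across groups. Deviations of same-numbered arrays correlated at -0.053 to 0.17, with 1 of 18 pairs over 0.1, which does not exclude pairing. *GH3.1*, sustained here, was called for the change with the block (adjusted p = 0.0392) and without replicate 1 of the DEX arrays of 12 h (0.0498).

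Of 187 genes tested in 25 settings, 0 reversed direction, and 14 lost the call of the change in a setting other than the stricter limits, which took it from 21 (adjusted p under 0.01) and 46 (fold and p limits). With 3 arrays a group, small 3 h effects may go uncalled, and the smallest 3 h effect that could be called was not determined.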
